A study of Mus musculus with 18 samples.

Results

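Complement genes were examined in microglia of the medial prefrontal cortex (mPFC), sorted by fluorescence-activated cell sorting as CD11b+/CD45+/P2ry12+ cells. The 7 genes were fixed by name and cover the C1q chains (C1qa, C1qb, C1qc), the components C3 and C4b, and the receptors C3ar1 and C5ar1. All 7 were among the 22428 genes measured in 18 RNA-seq libraries. Their level, order and spread were described first, and each was then compared between treatments and genotypes.

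The study crossed adolescent exposure to delta-9-tetrahydrocannabinol (THC) with 16p11dup, a mouse model of the 16p11.2 duplication. Libraries came from vehicle-treated wild-type littermates (WT-Veh, n = 6), THC-treated wild-type mice (WT-THC, n = 4), vehicle-treated 16p11dup mice (16p11dup-Veh, n = 4) and THC-treated 16p11dup mice (16p11dup-THC, n = 4). All mice were on a C57BL6/J background. THC (8 mg/kg) or vehicle was injected subcutaneously once a day from P30 to P51, postnatal days 30 to 51, and cells were taken at P51. No source says that each library is a separate mouse, so p-values measure the spread between these libraries, which may be partly technical.

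Complement is a cascade of plasma and tissue proteins that tags material for removal. The classical arm starts with C1q, a hexamer of trimers that each hold an A, a B and a C chain. C1q activates the proteases C1r and C1s. These proteases cleave C4 and C2, and the resulting convertase splits C3 into C3b, which coats targets, and C3a, a soluble signal. In brain, microglia are the main source of C1q, and C1q, C3 and the C3b-binding receptor CR3 have been tied to the removal of synapses during development. C3ar1 and C5ar1 are G protein-coupled receptors for the C3a and C5a fragments.

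C1qb, C1qc and C1qa lie side by side on the minus strand of chromosome 4 in GRCm38, at 136880129 to 136886187, 136889804 to 136893065 and 136895917 to 136898803. The 3 genes span 18675 bases, with 3616 bases between C1qb and C1qc and 2851 between C1qc and C1qa. C3ar1 lies on chromosome 6 at 122847138 to 122856161, and C5ar1 on chromosome 7 at 16246743 to 16259540. On chromosome 17 are C4b, at 34728380 to 34743882, and C3, at 57203970 to 57228136. No protein-coding gene overlaps any of the 7.

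RefSeq promoter windows on GRCm38.p6, from 250 bases before to 50 after the start, matched 5 of the 7 genes, all but C1qa and C4b. Those of the C1q genes and of the receptors, the members with counts in every library, are shown here 5′ to 3′ on the gene's strand. Capitals mark matches to AGGAAGT, a core motif of the myeloid factor PU.1, or to TGANTCA, the AP-1 motif, on either strand. Motifs were chosen after these sequences had been read. The windows are chr4:136886151-136886450 for C1qb, chr4:136892865-136893164 for C1qc, chr6:122856108-122856407 for C3ar1 and chr7:16259289-16259588 for C5ar1, all on the minus strand.
C1qb: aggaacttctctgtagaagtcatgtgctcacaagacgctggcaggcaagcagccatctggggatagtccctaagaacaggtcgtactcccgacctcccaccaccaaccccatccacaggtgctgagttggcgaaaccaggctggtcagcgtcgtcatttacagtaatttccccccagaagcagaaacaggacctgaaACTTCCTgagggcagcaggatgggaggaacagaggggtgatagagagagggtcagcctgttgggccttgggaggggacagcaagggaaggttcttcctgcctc
C1qc: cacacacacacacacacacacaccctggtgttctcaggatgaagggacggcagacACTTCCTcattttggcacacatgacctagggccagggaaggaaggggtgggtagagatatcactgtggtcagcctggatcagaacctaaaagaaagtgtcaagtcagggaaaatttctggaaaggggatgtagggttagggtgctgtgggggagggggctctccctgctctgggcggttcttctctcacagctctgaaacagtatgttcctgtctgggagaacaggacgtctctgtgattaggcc
C3ar1: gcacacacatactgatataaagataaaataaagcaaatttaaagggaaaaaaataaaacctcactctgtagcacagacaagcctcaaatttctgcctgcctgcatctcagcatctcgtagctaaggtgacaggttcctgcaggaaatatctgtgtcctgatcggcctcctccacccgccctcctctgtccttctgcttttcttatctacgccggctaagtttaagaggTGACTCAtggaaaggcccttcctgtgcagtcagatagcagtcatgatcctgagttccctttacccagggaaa
C5ar1: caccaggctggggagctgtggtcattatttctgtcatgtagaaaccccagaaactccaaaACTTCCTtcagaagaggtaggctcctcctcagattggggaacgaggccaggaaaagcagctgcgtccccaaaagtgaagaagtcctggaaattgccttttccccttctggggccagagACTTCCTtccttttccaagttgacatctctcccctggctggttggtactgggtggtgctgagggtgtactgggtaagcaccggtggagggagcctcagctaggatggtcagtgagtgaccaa

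The PU.1 letters were found in C1qb, C1qc and C5ar1, and in 9.4% of the 32851 windows of this length. C3ar1 held no such match but carried the palindromic AP-1 motif starting 22 bases before its start, a motif found in 7.8% of windows. In the C3 window, not shown, the only match was to TTGCNNAA, a C/EBP motif, which 10.8% of windows held. Each of the 5 windows matched only a single kind of the 3 motifs, so no positions could be shared. A match is only a run of letters and was not tested for binding.

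Counts recovered from the deposited values totalled 7045444 to 15459286 per library. The deposited log2 CPM (counts per 1000000 of the library size) use library sizes scaled by 0.735 to 1.305, and this factor bears on several values below. All 13 microglia markers examined were counted, and they summed to 23739 to 46941 CPM. The lists for other cells summed to at most 320 CPM for astrocytes, 194 for oligodendrocytes, 50.3 for neurons, 190 for endothelial and mural cells, 183 for border macrophages and 190 for monocytes and neutrophils. Cldn5, which marks endothelium, and Ly6c2 and Plac8, which mark monocytes, were at 0 in every library. As in any bulk sample, fewer cells of a type and less RNA per cell cannot be told apart.

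The 3 C1q transcripts were among the most abundant mRNAs of these cells, taking 0.881% ± 0.129 (SD, n = 18) of all counts together, with a range of 0.618% to 1.081%. By mean log2 CPM, C1qc ranked 9 and C1qb 14 of the 3302 genes counted in every library at a mean of at least 5 on that scale, while C1qa ranked 70. The receptors were lower, with ranks of 187 for C3ar1 and 1164 for C5ar1.

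Corrected for exon length, the order was C1qb, C1qc, C1qa, C3ar1, C5ar1. The mean levels were 3253, 2241, 1095, 132 and 71.8 CPM per kilobase of exon. C1qb was above C1qc in 17 of 18 libraries and C1qc above C1qa in all 18. Exon length was that of all annotated exons of a gene merged, 1088 bases for C1qb and 1931 for C1qc. Before this correction C1qc had the higher mean, 4327 CPM against 3539 for C1qb, so their order depends on the length used. C3ar1 was above C5ar1 in 14 of 18, so the order of the receptors was the least stable. C4b averaged 1.4 and C3 0.0436 CPM per kilobase, far below the other members.

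**Figure D1:**
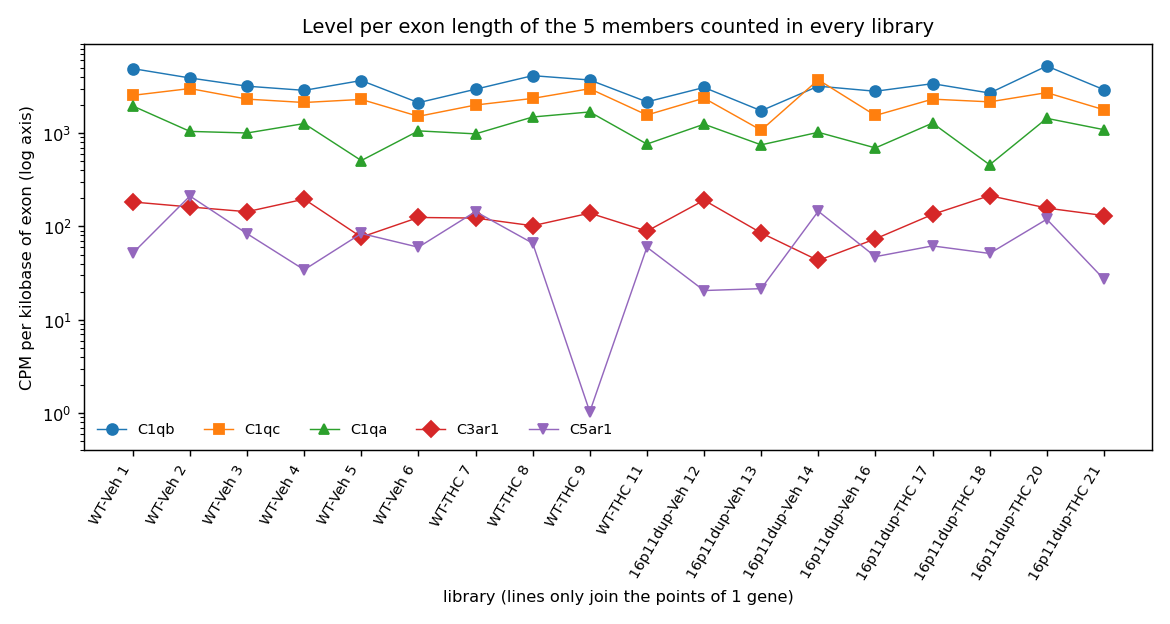
Level per exon length of the 5 members counted in every library. Each point is CPM per kilobase of exon in 1 library on a log axis, and lines only join points of a gene. C1qb was above C1qc in 17 of 18 libraries and C3ar1 above C5ar1 in 14, and the low C5ar1 point in WT-THC 9 rests on 20 counts.

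C1qc, the C chain, had the highest CPM of the members before length correction. In WT-Veh it ranged from 2918 to 5791 CPM around a median of 4445. The WT-THC libraries 7, 8, 9 and 11 held 3857, 4540, 5769 and 3015 CPM, all inside that range. In 16p11dup-Veh, libraries 12, 13, 14 and 16 held 4570, 2073, 7185 and 2981 CPM, so this group alone went past the WT-Veh range at both ends. The 16p11dup-THC libraries 17, 18, 20 and 21 held 4459, 4171, 5236 and 3431 CPM and sat close together.

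C1qb, the B chain, was at 2302 to 5334 CPM in WT-Veh with a median of 3718. WT-THC held 3208, 4484, 4030 and 2348 CPM. In 16p11dup-Veh the values were 3352, 1887, 3460 and 3052 CPM, all below the WT-Veh mean of 3738 ± 1037 (SD, n = 6). The 16p11dup-THC libraries held 3679, 2921, 5686 and 3172 CPM, overlapping every other group.

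C1qa, the A chain, was less abundant, at 528 to 2028 CPM in WT-Veh with a median of 1091. WT-THC libraries held 1020, 1546, 1751 and 793 CPM. Those of 16p11dup-Veh held 1295, 778, 1060 and 721 CPM, and those of 16p11dup-THC 1330, 476, 1496 and 1131 CPM. Groups overlapped throughout, and the lowest value of all 18, 476 CPM, was in 16p11dup-THC 18.

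**Figure D2:**
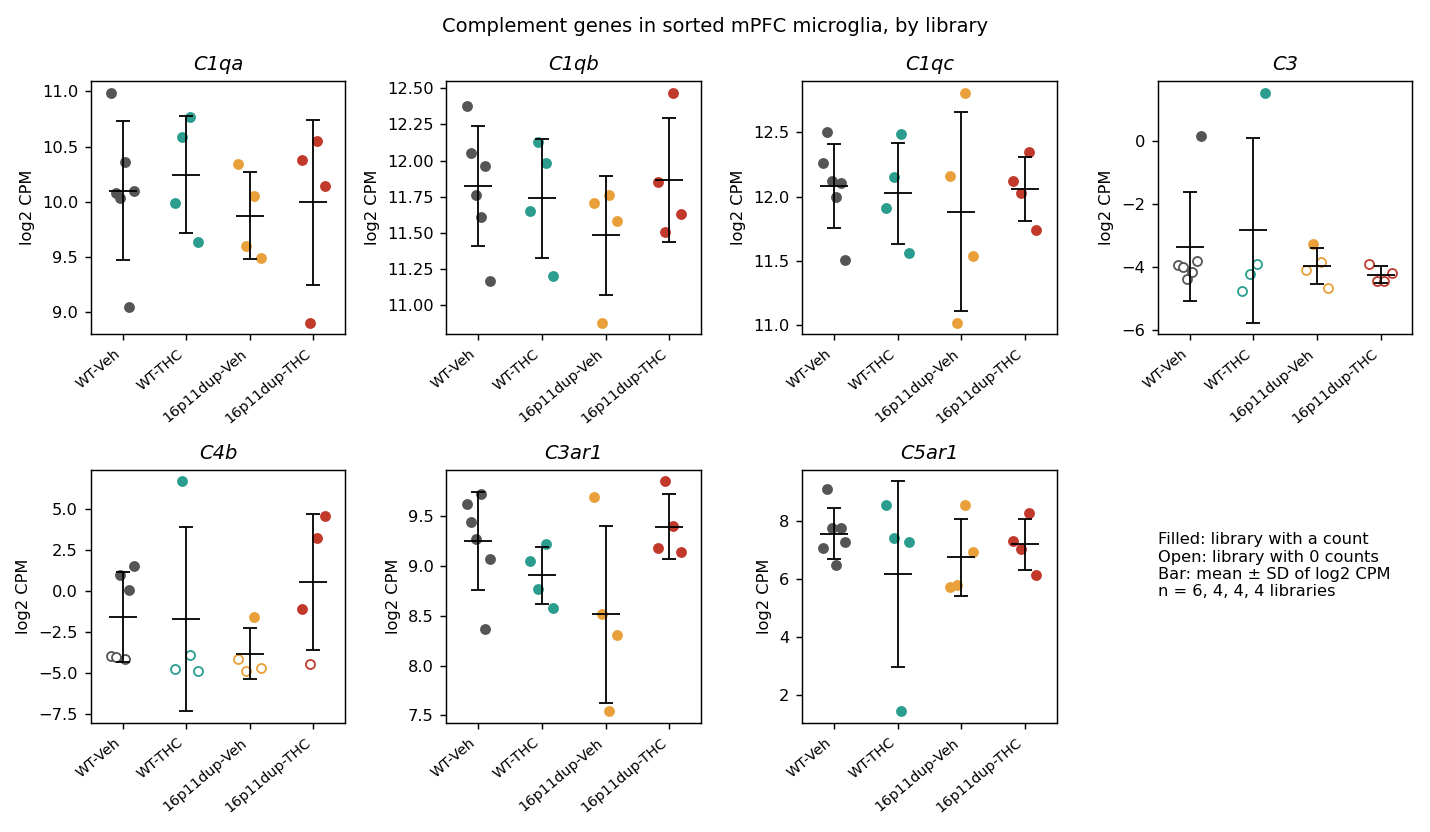
Levels of the 7 complement genes by library. Each point is the deposited log2 CPM of 1 library, open where the count is 0, with the mean and SD per group (n = 6, 4, 4, 4). The groups overlap for every gene, and C3 and C4b are at 0 counts in most libraries.

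The limma model, fitted over all 18 libraries with the percentage of mapped reads as covariate, called none of the 7 members at FDR under 0.10 in any of its 6 comparisons. FDR stands for p-values adjusted by the Benjamini-Hochberg method, with all 22428 genes in the adjustment. Of the 13964 genes with any count, 0.0143% were called for WT-THC vs WT-Veh, 0.00716% for 16p11dup-THC vs WT-Veh and 0.00716% for 16p11dup-THC vs WT-THC, and 0% for the other 3 comparisons. Neither edgeR nor DESeq2 called a member.

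At an unadjusted p under 0.05, limma marked C3ar1 and no other member, in 3 of the 6 comparisons. The share of all genes with a count past that p was 4.07% for WT-THC vs WT-Veh and 5.53% for 16p11dup-THC vs WT-Veh, where no member passed it. It was 5.8% for 16p11dup-THC vs WT-THC, also with no member. The comparisons with 1 of 7 members, C3ar1, had shares of 3.64% for 16p11dup-Veh vs WT-Veh, 5.16% for 16p11dup-THC vs 16p11dup-Veh and 4.58% for the interaction. With 7 members, a share of this size is less than 1 gene per comparison, and the comparisons share control libraries.

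Fold changes of the C1q genes were small in all 6 comparisons. They ranged from -0.35 to 0.53 on the log2 scale, and the outer bounds of their 95% intervals were -1.13 and 1.22. None had an unadjusted p below 0.118. The intervals therefore leave room for changes of up to about 1 log2 unit. In 16p11dup-THC vs 16p11dup-Veh, C1qc stood at 0.53 and C1qb at 0.45, and with genes of low count left out before the fit these became 0.41 (95% interval 0.03 to 0.78) and 0.39 (0.03 to 0.75) by limma, with FDR = 0.998 for both. In the count models C1qc turned to -0.06 in edgeR and -0.08 in DESeq2 for that comparison. Single libraries also moved C1qc: without WT-Veh 6 it was -0.70 for 16p11dup-Veh vs WT-Veh (limma 95% interval -1.33 to -0.06, FDR = 0.835), and without 16p11dup-Veh 14 it was 0.65 for 16p11dup-THC vs 16p11dup-Veh (0.04 to 1.25, FDR = 0.943).

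**Figure D3:**
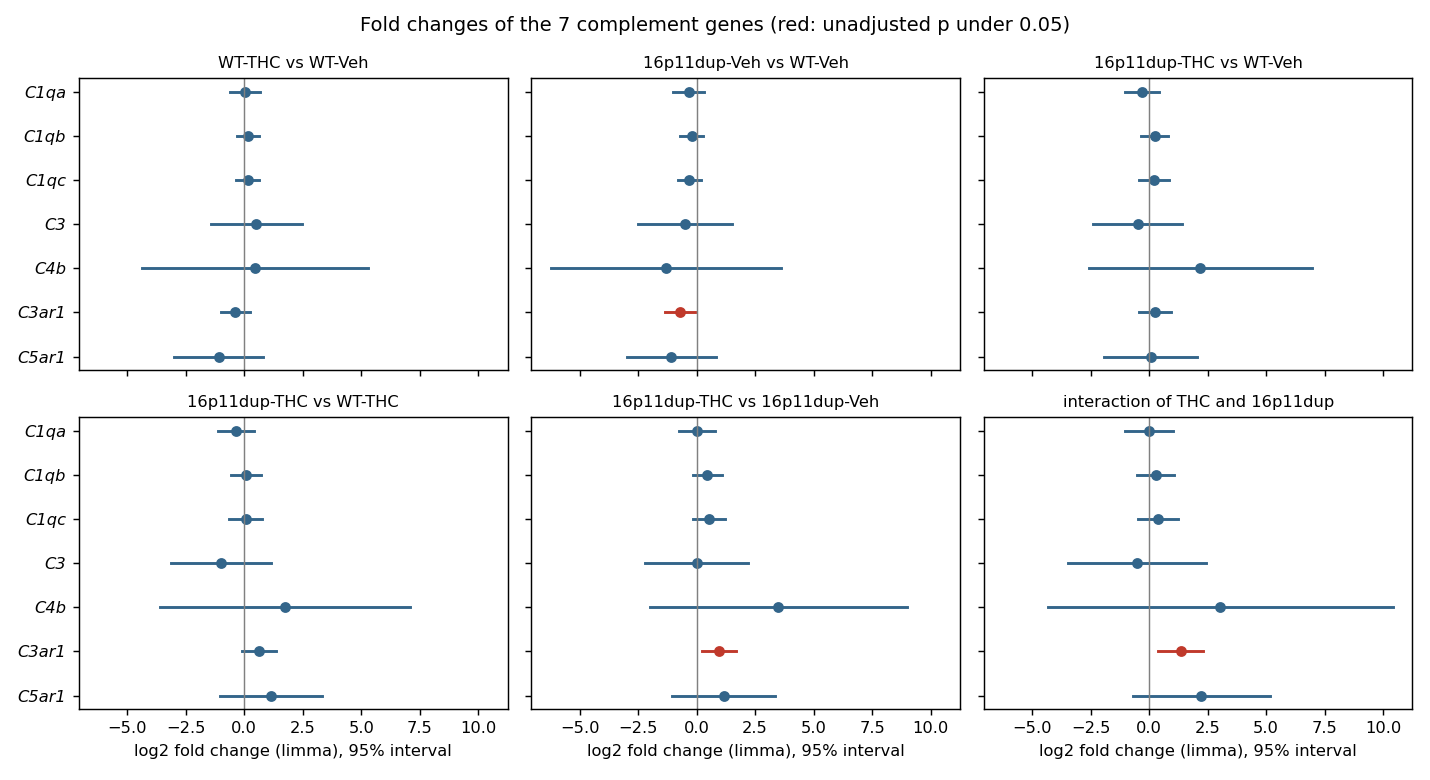
Fold changes of the 7 complement genes in 6 comparisons. Points are limma log2 fold changes and bars are 95% intervals, red where the unadjusted p is under 0.05. C3ar1 is red in 3 panels. The C1q intervals all include 0 and have outer bounds of -1.13 and 1.22, and those of C3, C4b and C5ar1 are wider.

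C1qb and C1qc varied together across the 18 libraries. Pearson's r of their log2 CPM was 0.77 (permutation p = 0.00011, 0.0011 after adjustment over the 10 pairs of the 5 members counted everywhere) and Spearman's rho 0.84 (permutation p = 2e-05, adjusted 0.0002). It was 0.68 without the 2 libraries farthest from the C1qb median and 0.77 for deviations from group means. With plain totals in place of the scaled library sizes it dropped to 0.42 (permutation p = 0.0793, adjusted 0.537), so the relation does not hold under that scaling. The scaling factor itself had r = -0.91 with C1qc and -0.78 with C1qb, and the number of genes with a count had -0.83 and -0.76. What part of the shared variation these library properties carry was not tested.

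**Figure D4:**
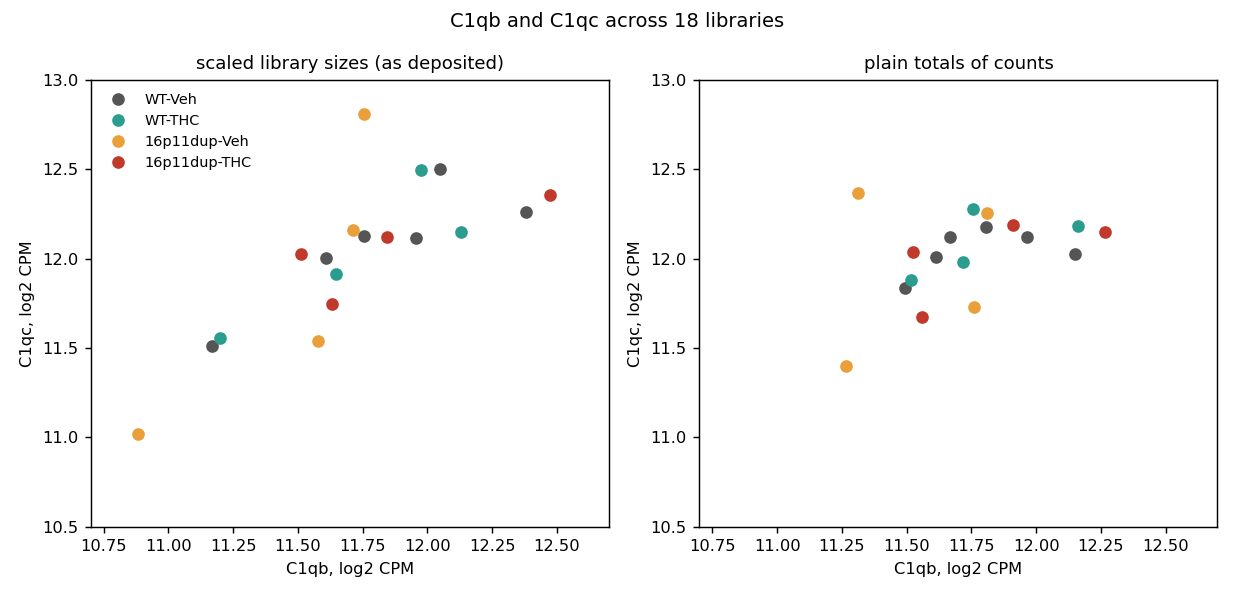
C1qb against C1qc in 18 libraries, both in log2 CPM, coloured by group. On the scaled library sizes of the deposited values r was 0.77, and on plain totals of counts it was 0.42, with 16p11dup-Veh 13 and 14 lying apart in C1qc.

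The ratio of 2 genes within a library does not depend on the library size. C1qb over C1qc was 0.835 ± 0.154 (SD, n = 18), from 0.482 in 16p11dup-Veh 14 to 1.09. C1qa over C1qc was more variable, at 0.272 ± 0.0866 with a range of 0.114 to 0.414. For C1qa the correlations were 0.54 with C1qb (permutation p = 0.0214, adjusted 0.107; rho 0.62, adjusted 0.0353) and 0.41 with C1qc (permutation p = 0.0939, adjusted 0.313; rho 0.51, adjusted 0.106). Without the 2 libraries with extreme C1qa, 16p11dup-THC 18 and WT-Veh 5, these became 0.76 and 0.62, and with plain totals 0.38 and 0.09. The 2 receptors showed r = -0.18 with each other (permutation p = 0.461, adjusted 0.659; rho -0.23), and no pair of a receptor and a C1q gene had an adjusted p below 0.221.

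By the mean pattern of the 3 C1q genes over the 18 libraries, the most similar of 3297 other genes counted in every library were Rn45s (r = 0.792), Cst3 (0.768), 4632428N05Rik (0.756), Eif4a1 (0.743) and Serinc3 (0.741), against a median r of 0.03. Rn45s is the ribosomal RNA precursor, and Cst3 encodes the protease inhibitor cystatin C. The share of counts on Rn45s ranged from 4.38% to 13.77% and had r = 0.7 with C1qa, 0.49 with C1qc and 0.35 with C1qb. These are descriptions over libraries that share their scaling, with no test.

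Relative to their abundance the C1q genes were not unusually steady. The SD of log2 CPM over 18 libraries was 0.40 for C1qb, 0.43 for C1qc and 0.56 for C1qa, below the median of 1.14 for all 3302 genes. Genes within 1 log2 unit of the same level had median SDs of 0.40, 0.39 and 0.51. C3ar1 had 0.60 against 0.62 for genes near its level, and C5ar1, at 1.67 against 1.03, was more variable than most, with 91 of the 1632 genes near its level at a larger SD. That rests on WT-THC 9. Without this library the C5ar1 SD was 0.96 against 0.94, and 668 of 1452 genes near its level had a larger SD.

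C3ar1, the receptor for C3a, was the member with the most distinct groups. WT-Veh held 331 to 844 CPM with a median of 657. The WT-THC libraries 7, 8, 9 and 11 held 529, 438, 598 and 383 CPM, all below the WT-Veh mean of 636 ± 186 (SD, n = 6). In 16p11dup-Veh, libraries 12, 13, 14 and 16 held 823, 367, 186 and 317 CPM, so 3 were low and library 12 was near the top of all 18. The 16p11dup-THC libraries 17, 18, 20 and 21 held 579, 921, 677 and 563 CPM. All 4 were above the 16p11dup-Veh mean of 423 ± 277 (SD, n = 4), yet the groups overlapped because of library 12.

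For 16p11dup-THC vs 16p11dup-Veh, the limma log2 fold change of C3ar1 was 0.96 ± 0.34 (SE, 95% interval 0.23 to 1.69, FDR = 0.829). The exact permutation test of the log2 means gave p = 0.114, with 0.0286 the smallest that 4 against 4 libraries allow. For 16p11dup-Veh vs WT-Veh it was -0.71 ± 0.29 (SE, limma p = 0.0285, FDR = 0.982), with exact permutation p = 0.133. For 16p11dup-THC vs WT-THC, all 4 libraries were above the WT-THC mean, at 0.63 ± 0.35 (SE, limma p = 0.088; exact permutation p = 0.0857). The difference of the THC effect between genotypes, the interaction, was 1.34 ± 0.46 (SE, 95% interval 0.37 to 2.32, limma FDR = 0.973). The levels in WT-THC and WT-Veh differed by -0.38 ± 0.29 (SE), with a limma interval that includes 0.

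Under the count models these C3ar1 differences kept their direction but no longer passed an unadjusted p of 0.05. The value for 16p11dup-THC vs 16p11dup-Veh was 0.76 in edgeR (FDR = 1) and 0.72 in DESeq2 (FDR = 0.682), and the interaction was 1.15 in edgeR (FDR = 1) and 1.11 in DESeq2 (FDR = 0.519). With the authors' 5 surrogate variables in limma, 16p11dup-THC vs 16p11dup-Veh was 0.52 (95% interval -0.23 to 1.28) and 16p11dup-Veh vs WT-Veh -0.40 (-1.02 to 0.22). The interaction ranged from 1.15 to 1.58 when each library was left out in turn, with every limma interval above 0. Leaving out 16p11dup-THC 18, which has the highest C3ar1 level, gave 0.78 (-0.09 to 1.64) for 16p11dup-THC vs 16p11dup-Veh. The interval for 16p11dup-Veh vs WT-Veh took in 0 without WT-Veh 4, 16p11dup-Veh 13, 16p11dup-Veh 14 or 16p11dup-Veh 16, at -0.64, -0.71, -0.53 and -0.64. For 16p11dup-THC vs WT-THC, leaving out WT-THC 9 raised the value to 0.85 (0.03 to 1.66, FDR = 0.925).

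In 16p11dup-THC vs 16p11dup-Veh, some microglia markers moved in the same direction as C3ar1: Tmem119 and Csf1r were among those higher at an unadjusted p under 0.05, none of the 13 was lower, and the sum of the 13 ranged from 26220 to 39952 CPM in 16p11dup-Veh and from 29406 to 46941 in 16p11dup-THC. Their part in the C3ar1 difference was not tested. The scaling factor had r = -0.1 with C3ar1, and with plain totals the fold change was 0.97.

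Library 16p11dup-Veh 12, the one high in C3ar1, also had the highest sum of monocyte and neutrophil markers, 190 CPM, with all other 16p11dup-Veh libraries at 0.748 to 16.4 CPM. Most of the 190 CPM was S100a8, whose highest value in any library was 154 CPM, and Retnlg averaged 0 CPM in 16p11dup-Veh. Ly6c2 and Plac8 were at 0 in 16p11dup-Veh 12 as everywhere. The next highest sum, 95.9 CPM and mostly S100a9, was in WT-THC 8, where C3ar1 was at 438 CPM. The part of such cells in the C3ar1 levels was not tested. Without 16p11dup-Veh 12, C3ar1 stood at 1.21 (limma 95% interval 0.59 to 1.83, FDR = 0.945) for 16p11dup-THC vs 16p11dup-Veh, at -0.98 (-1.53 to -0.44, FDR = 0.875) for 16p11dup-Veh vs WT-Veh, at 1.58 (0.77 to 2.39, FDR = 0.861) for the interaction and at 0.60 (0.01 to 1.20, FDR = 0.968) for 16p11dup-THC vs WT-THC. That library was picked for its high C3ar1, so leaving it out lowers the 16p11dup-Veh mean by construction. The larger differences from that group are therefore no test.

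C5ar1, the receptor for C5a, was lower and far more uneven. WT-Veh held 88.3 to 544 CPM with a median of 185. The WT-THC libraries held 371, 170, 2.66 and 154 CPM, and the value of 2.66 CPM in library 9 rests on 20 counts. In 16p11dup-Veh the libraries held 52.9, 55.4, 374 and 122 CPM, and in 16p11dup-THC 159, 132, 307 and 70.1 CPM. The 4 groups overlapped, and each held both high and low libraries. In 16p11dup-Veh 14 the receptors lay far apart in rank, since its C3ar1 was the lowest of all 18 at 186 CPM while its C5ar1 was the highest of its group.

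The limma log2 fold changes of C5ar1 were large but imprecise. They were -1.08 ± 0.89 (SE) for WT-THC vs WT-Veh and the same for 16p11dup-Veh vs WT-Veh. Under THC, 16p11dup-THC stood 1.15 ± 1.02 above WT-THC, and it was 1.15 ± 1.03 above 16p11dup-Veh. The interaction was 2.24 ± 1.38. The values that involve WT-THC depended on library WT-THC 9. Without it they were 0.20 for WT-THC vs WT-Veh, -0.46 for 16p11dup-THC vs WT-THC and 0.48 for the interaction, so the first 2 changed sign. With all libraries kept, WT-THC vs WT-Veh was at 0.37 with the surrogate variables and -0.04 with voom weights computed with the design, and with those weights 16p11dup-THC vs WT-THC was at -0.06. No C5ar1 value passed an unadjusted p of 0.05.

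C3, the central component, was counted in 3 of 18 libraries. It had 41 counts (2.88 CPM) in WT-THC 11, 21 counts (1.08 CPM) in WT-Veh 6 and 1 count in 16p11dup-Veh 13. No 16p11dup-THC library had a count, which allows up to 0.276 to 0.401 CPM in these 4 libraries at a limit of 3 counts per library. C3 was thus near the limit of detection while its receptor C3ar1 was counted in every library. Its fitted fold changes depend on the 0.5 counts added before the log, and the most negative was -1.0 ± 1.0 (SE) for 16p11dup-THC vs WT-THC, 0.00 when WT-THC 11 was left out.

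C4b, which encodes mouse complement C4, was counted in 8 of 18 libraries and very unevenly. One library, WT-THC 8, held 959 counts or 103 CPM, and the other 3 of WT-THC held 0. In 16p11dup-THC there were 221 counts in library 21, 103 in library 20, 3 in library 17 and 0 in library 18. WT-Veh 6, 3 and 5 had 56.83, 20 and 7 counts, and 16p11dup-Veh 14 had 2. Libraries 8, 20 and 21 were therefore high against a background at or near 0, and they came from both THC groups.

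WT-THC 8 also had the highest sum of border macrophage markers, 183 CPM, and 95.9 CPM of monocyte and neutrophil markers. Nearly all of the first sum was Mrc1, whose highest value in any library was 183 CPM. Cd163, Pf4, F13a1 and Ms4a7 averaged 0 CPM in WT-THC. Most of the second was S100a9, with a highest value of 87.5 CPM. In 16p11dup-THC 20 and 21 the border macrophage sums were 3.95 and 5.65 CPM, and the astrocyte sums 301 and 234 CPM. The astrocyte sum was 262 CPM in WT-THC 8. It was also 320 and 307 CPM in 16p11dup-Veh 16 and 14, where C4b had 0 and 2 counts. The astrocyte list was mostly Slc1a3, at a mean of 165 CPM over 18 libraries, with Gfap counted in 1. The part of such cells in the C4b counts was not tested. The fraction in the 56.83 counts of WT-Veh 6 comes with 17.17 counts of the neighbouring C4a, so RSEM divided reads between the pair. Of 5230 windows of 150 bases along the C4b transcript, 432 (8.3%) occur unchanged in C4a, so reads within these stretches match both genes. C4a was counted in 2 of 18 libraries, and not in WT-THC 8 or 16p11dup-THC 20 or 21. How far shared reads moved the C4b counts was not tested.

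Fold changes of C4b were large but imprecise, and with all libraries in the fit none was separated from 0. The limma log2 values were -1.30 ± 2.31 (SE) for 16p11dup-Veh vs WT-Veh, 2.19 ± 2.23 for 16p11dup-THC vs WT-Veh and 1.74 ± 2.50 for 16p11dup-THC vs WT-THC. They reached 3.49 ± 2.58 for 16p11dup-THC vs 16p11dup-Veh, where the exact permutation p was 0.0857, and 3.05 ± 3.46 for the interaction. Direction and size depended on single libraries and on the test. Without WT-THC 8, 16p11dup-THC vs WT-THC was at 4.73 (limma 95% interval 0.38 to 9.07, FDR = 0.95) and the interaction at 6.07 (0.27 to 11.9, FDR = 0.956). Without WT-THC 9 these turned to -0.99 and -0.25, and 16p11dup-THC vs WT-THC was at -2.09 in edgeR and -2.12 in DESeq2.

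Across the members, the median log2 fold change was -0.49 for 16p11dup-Veh vs WT-Veh, where all 7 were below 0, and 0.53 for 16p11dup-THC vs 16p11dup-Veh, where C3 was at 0.00 and the other 6 above 0. Over all genes with a count the medians were 0.03 and -0.06. The 5 members counted in every library, whose fitted values do not rest on zeros, had medians of -0.34 and 0.53. These signs were not firm for the C1q genes. Without 16p11dup-Veh 13, C1qb and C1qc were at 0.13 and 0.11 for 16p11dup-Veh vs WT-Veh, and with the intron covariate C1qb was at 0.14. For 16p11dup-THC vs 16p11dup-Veh, C1qa was at 0.03 by limma but at -0.08 with plain totals, -0.04 in edgeR and -0.05 in DESeq2. Both comparisons share the 16p11dup-Veh libraries. For WT-THC vs WT-Veh, 16p11dup-THC vs WT-Veh, 16p11dup-THC vs WT-THC and the interaction, the member medians were 0.16, 0.22, 0.07 and 0.37, against -0.11, -0.10, 0.05 and -0.02 for all genes. The most positive value of WT-THC vs WT-Veh was that of C3, at 0.52 ± 0.91 (SE), which was -0.50 without WT-THC 11. In 16p11dup-Veh vs WT-Veh it was that of C1qb, at -0.21 ± 0.23, and the most negative values of 16p11dup-THC vs WT-Veh and of the interaction were those of C3, at -0.49 ± 0.89 and -0.51 ± 1.39.

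Of 52 other complement genes listed, 49 were in the table and 27 had a count. The classical proteases and the terminal components were scarce: 4 of 12 initiators and proteases and 3 of 11 central and terminal genes had any count. C1ra, the C1r protease, was counted in 5 libraries at no more than 3.49 CPM, and Cfb, factor B of the alternative pathway, in 1. Cfp, which encodes properdin, was at 0 in 14 libraries but at 69.0 CPM in 16p11dup-THC 17.

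Receptors and regulators were better represented. Itgam and Itgb2 encode the chains of CR3, and Itgam, whose product CD11b was used in the sort, averaged 2039 CPM (910 to 3461) with Itgb2 at 415 (158 to 1527). Lrp1, an endocytic receptor, averaged 1452 CPM and Calr, the C1q-binding chaperone calreticulin, 298. Among regulators, Csmd3 averaged 508 CPM and Cr1l, mouse Crry, 85.2. C5ar2, the second C5a receptor, averaged 116 CPM in 18 libraries and C1qbp 45.6. Itgax, the alpha chain of CR4, was counted in 8 libraries, with 14.4 CPM at most.

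None of the 27 passed FDR 0.10 in any comparison, and none was lower at an unadjusted p under 0.05. At most 1 of the 27 was higher at that p in any comparison. Of all genes with a count, 3.64% to 5.8% passed that p in either direction. Clu, which encodes clusterin, an inhibitor of the terminal complex, was higher at that p in 3 comparisons, with limma log2 fold changes of 6.66 ± 1.86 (SE, FDR = 0.829) for 16p11dup-THC vs 16p11dup-Veh, 4.56 ± 1.62 for 16p11dup-THC vs WT-Veh and 5.64 ± 2.50 for the interaction. Its levels were low: 1.34, 23.0, 27.1 and 0.543 CPM in 16p11dup-THC, at most 3.79 CPM in WT-Veh, 22.9 CPM in WT-THC 8 with at most 0.211 in the rest of that group, and a single count in 16p11dup-Veh. Clu was thus high in WT-THC 8 and 16p11dup-THC 20, as C4b was, but also in 16p11dup-THC 18, where C4b was at 0. Vtn, which encodes vitronectin, was higher at that p in 16p11dup-Veh vs WT-Veh, at 1.45 ± 0.67, from counts in 2 libraries.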

How the data were processed

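Microglial RNA was sequenced in 18 libraries. Per the study's methods, the authors aligned reads to GRCm38/mm10 with STAR through RSEM 1.3.0 without strand, removed outlier libraries and filtered genes by TPM. One source names Smart-seq2 and another a low-input Nugen Ovation kit. The authors deposited log2 CPM from limma voom, with 22428 genes. They also deposited read counts per library, the fraction of reads mapped, on exons and on introns, and 5 surrogate variables, a score per library. Counts were recovered from the deposited log2 values, and 94.3% of nonzero ones were whole within 0.005. The remainder are RSEM estimates.

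The study's design was refitted with limma 3.58.1 in R 4.3.3: voom weights without a design, 4 groups and the percentage of mapped reads, with a Benjamini-Hochberg threshold of FDR 0.10. Alternatives used edgeR 4.0.16, DESeq2 1.42.0 on rounded counts, other weights, covariates, offsets, library sizes, a filter on low counts (10 in at least 4 libraries) and each library left out. Single genes also had exact two-sided permutation tests, and correlations two-sided ones with 100000 resamples. The limma fit was tested on simulated counts for WT-THC vs WT-Veh only. Fold changes of all members are described by range, with SE for those beyond 1 log2 unit, at an unadjusted p under 0.05 or at either end of a comparison. The members and lists were chosen with earlier results of these data known.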

Additional observations from a re-analysis of the deposited data

Results flagged for a closer look

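The C3ar1 response to THC differed between genotypes at an unadjusted p. The interaction was 1.34 on the log2 scale (limma 95% interval 0.37 to 2.32, FDR = 0.973), so it fails the correction over all genes. All 4 WT-THC libraries lay below the WT-Veh mean and all 4 16p11dup-THC libraries above the 16p11dup-Veh mean. No explanation was tested. Among 20 pairs of gene and group, for the 5 members counted in every library, 0 had a highest or lowest library past Dixon's critical value, which chance passes in about 1 of 20 groups. C5ar1 in WT-THC 9 did not pass it either, at 1.45 log2 CPM against 7.27 to 8.54 in the rest of its group.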

How the results depend on the processing

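No member passed FDR 0.10 by limma under any alternative, by edgeR or by DESeq2, or with any library left out. Over all genes, limma called 0 to 2 per comparison as reported, 0 to 4 in its other settings and 0 to 6 with a library left out, edgeR 0 to 17 and DESeq2 459 to 1041. The number of members at an unadjusted p under 0.05 moved more, and so did the share of all genes past it, which was 2.98% to 8.04% in the other limma settings, 3.34% to 6.35% with a library left out, 7.49% to 8.84% in edgeR and 9.1% to 14.7% in DESeq2. For 16p11dup-Veh vs WT-Veh it went from 1 to 0 without weights, with the intron covariate, with only those groups, in edgeR and in DESeq2, and ranged from 0 to 2 with a library left out. With surrogate variables the 1 member was C1qc, at -0.48 (limma 95% interval -0.71 to -0.24), in place of C3ar1. For 16p11dup-THC vs WT-THC it went from 0 to 1 with design weights and with only those groups (0 to 1 with a library left out). For 16p11dup-THC vs 16p11dup-Veh it was 0 with surrogate variables, in edgeR and in DESeq2, 3 with the filter, where 4.71% of 10695 genes passed, and 0 to 2 with a library left out. For the interaction it was 0 in edgeR and DESeq2, and 1 to 2 with a library left out. For WT-THC vs WT-Veh and 16p11dup-THC vs WT-Veh it was 0 throughout. The filter removed C3. The correlation of C1qb and C1qc fell to 0.42 on plain totals. The SD of C5ar1 without WT-THC 9 was chosen after seeing the data. The causes were not tested. C3 and C4b had no count in most libraries, so little can be said of either.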
